A study of Mus musculus with 4 samples.

Results

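Open chromatin regions linked to no gene in the deposited table that were more accessible in quiescent satellite cells of mdx mice than of wild type mice were examined across the genome. Members were selected on their own values: a region qualified when it had no linked gene, lay on an autosome, and its lower mdx value was 50 or more and at least 2.5 times its higher wild type value. This ratio of the lower mdx to the higher wild type value is the ratio given throughout. Of 35019 regions in all, 19660 were autosomal with no linked gene, and 273 of these, 1.39%, met the rule. The reversed rule, with wild type above mdx, held for 12 regions, 0.0610%. Among 14344 gene-linked autosomal regions, 44 met the same thresholds with mdx higher, 0.307%, and 24 met the reversed thresholds, 0.167%. Because all 4 libraries entered the selection, no difference between the groups in these regions was tested, and the mdx and wild type values below describe the set. The count depended on how many libraries had to separate: 1024 regions met the rule without mdx replicate 2, and 806 without wild type replicate 2. It also depended on the scaling: with the medians of the unlinked regions set equal in the 4 libraries, 134 regions met the rule and 46 met its reverse, so 74.4% of the regions past either threshold were higher in mdx, against 95.8% as deposited.

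The assay was ATAC-seq, in which the Tn5 transposase cuts and tags exposed DNA, and the cells were satellite cells, the stem cells of skeletal muscle, sorted by flow cytometry. The 2 groups were muscular dystrophy (mdx) and wild type, with 2 libraries each analysed here, and both were freshly sorted with no other treatment named in the labels. Mdx mice lack full-length dystrophin in muscle fibres too, so satellite cells were not the only cells affected. Per the design text there were 3 mice in each condition. The labels give no strain, age or sex and do not say whether the libraries came from separate animals.

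Read numbers were not given and were worked out from the scaled values and a scaling factor inferred for each library. By this estimate the listed regions held about 3208372 to 3693587 reads in 3 libraries and about 8166242 in the fourth, wild type replicate 2. Unlinked regions took 40.3% and 36.1% of the autosomal signal of the mdx pair and 29.6% and 32.5% for wild type, so the groups differed in the overall share of signal in regions without a linked gene. The part of this shift in the 273 regions was not tested beyond the scaling above. Linked regions of 18 of 18 satellite cell markers were listed, with summed values of 4358 and 4272 in mdx and 4936 and 4792 in wild type. Pax7, the transcription factor that defines satellite cells, had 90 and 103 in mdx and 93 and 124 in wild type. Summed values of other cell types' markers were 1576 and 1434 against 1381 and 1379 for fibro-adipogenic progenitors (9 of 14 genes with a linked region), 152 and 131 against 131 and 146 for endothelium (1 of 10), and 26 and 28 against 29 and 29 for macrophages (2 of 10). They were 623 and 558 against 585 and 606 for smooth muscle (5 of 8), 350 and 394 against 359 and 340 for Schwann cells (4 of 7), and 295 and 338 against 352 and 313 for tendon cells (2 of 5). Myofibre genes (4 of 10) had 587 and 577 in mdx and 316 and 429 in wild type. For fibro-adipogenic progenitor and myofibre genes both mdx sums were above both wild type sums, with a median log2 difference over regions of 0.02 and 0.82. For satellite cell and macrophage genes both mdx sums were below, with medians of -0.16 and -0.21. In the other 4 lists the groups overlapped. Linked regions as a whole were lower in mdx on the deposited scaling: the median over 11388 named ones was -0.24, with 26.2% above 0. The satellite cell and macrophage medians were not below that background. The progenitor genes were mixed: Col1a2 had 137 and 123 against 72 and 69 and Osr1 88 and 100 against 37 and 46, while Pdgfra had 84 and 77 against 97 and 102. The 2 macrophage genes with a linked region went opposite ways. Csf1r had 19 and 21 against 9 and 15, and Cx3cr1 7 and 7 against 20 and 14. No listed marker region was at 0 in all 4 libraries, and the part of other cell types in the results was not tested.

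Accessible regions far from gene starts include enhancers, which bind transcription factors and can act on promoters over long distances, as well as insulators and unannotated promoters. Accessibility does not tell these apart. Factor families with sites in distal chromatin of muscle cells include AP-1, RUNX, TEAD and NFI, and E-boxes are the sites of the myogenic factors. The nearest gene named for a region below is a position and not a target.

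RefSeq promoter windows, 250 bases before to 50 after an annotated start, were given for the chromosomes of 265 members (GRCm38.p6, the build that mm10 names). Of these members 258 lay clear of every window and 7 overlapped one, and the other 8 were not checked. For those 7 the word distal does not hold by position: 2 are windows of coding genes, Nrxn3 and Cdkn2a, and 5 of long noncoding RNAs. Shown here are the 3 windows lying wholly inside a member and 2 that members in cell cycle genes overlap, so that a reader can set the coding and noncoding starts side by side. Sequences of the other members were not used here. Capitals mark matches, on either strand, to TGANTCA (AP-1), CAGCTG or CAGGTG (E-boxes), TGTGGT (RUNX), GGAATG (TEAD), TTGGCA (NFI), GGGCGG (which binds Sp factors) or TATAAA (which binds the TATA-binding protein), and each window reads 5′ to 3′ on its own strand. The windows are chr12:89812233-89812532 (plus strand, start of a Nrxn3 transcript), chr19:21104460-21104759 (plus, 4930554I06Rik), chr4:89282143-89282442 (minus, Cdkn2a), chr10:110762520-110762819 (minus, Gm51780, inside the span of E2f7) and chr16:18795692-18795991 (plus, Gm52240, inside the span of Cdc45).
Nrxn3: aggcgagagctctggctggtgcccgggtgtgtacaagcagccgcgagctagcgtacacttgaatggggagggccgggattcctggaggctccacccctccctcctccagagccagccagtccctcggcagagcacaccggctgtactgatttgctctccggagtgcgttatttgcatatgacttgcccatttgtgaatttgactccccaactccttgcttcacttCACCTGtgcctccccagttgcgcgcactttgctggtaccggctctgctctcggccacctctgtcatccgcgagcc
4930554I06Rik: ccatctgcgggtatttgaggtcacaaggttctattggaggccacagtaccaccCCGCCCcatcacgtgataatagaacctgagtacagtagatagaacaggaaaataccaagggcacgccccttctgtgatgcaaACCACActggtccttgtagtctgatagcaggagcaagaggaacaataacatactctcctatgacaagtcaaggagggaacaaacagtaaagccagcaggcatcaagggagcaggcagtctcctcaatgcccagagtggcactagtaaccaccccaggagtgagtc
Cdkn2a: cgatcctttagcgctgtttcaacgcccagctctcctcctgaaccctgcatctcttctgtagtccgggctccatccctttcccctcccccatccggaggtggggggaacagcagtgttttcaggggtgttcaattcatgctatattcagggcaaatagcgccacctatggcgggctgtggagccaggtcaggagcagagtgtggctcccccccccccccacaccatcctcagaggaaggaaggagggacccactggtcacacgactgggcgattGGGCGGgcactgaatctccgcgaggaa
Gm51780: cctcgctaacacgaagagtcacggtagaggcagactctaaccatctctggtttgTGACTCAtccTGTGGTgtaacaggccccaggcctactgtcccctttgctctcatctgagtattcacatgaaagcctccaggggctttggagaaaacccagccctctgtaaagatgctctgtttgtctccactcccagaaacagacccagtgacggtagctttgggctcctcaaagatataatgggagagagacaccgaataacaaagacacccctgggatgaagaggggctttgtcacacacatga
Gm52240: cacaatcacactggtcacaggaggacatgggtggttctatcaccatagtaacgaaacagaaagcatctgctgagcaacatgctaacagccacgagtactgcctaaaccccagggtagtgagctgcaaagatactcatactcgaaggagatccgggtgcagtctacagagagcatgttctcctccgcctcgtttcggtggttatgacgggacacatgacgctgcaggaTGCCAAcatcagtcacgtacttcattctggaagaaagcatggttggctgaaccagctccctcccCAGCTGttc

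The Nrxn3 and Cdkn2a windows were rich in G and C, 60.7% and 60.3%, with 16 and 12 CpG pairs, against medians of 52.7% and 7 over 32851 windows. The other 3 printed windows had 50.7% and 4 CpG pairs (4930554I06Rik), 51.0% and 5 (Gm51780), and 51.7% and 10 (Gm52240). The Gm52240 window was thus also above the median in CpG pairs. CAGGTG stood in the Nrxn3 window and GGGCGG in the Cdkn2a window. The 4930554I06Rik window held TGTGGT and GGGCGG. The Gm51780 window had matches to TGANTCA and TGTGGT, and the Gm52240 window to CAGCTG and TTGGCA. These letters are common: of all windows, 7.81% held TGANTCA, 16.3% CAGCTG, 20.2% CAGGTG, 16.8% TGTGGT, 14.7% GGAATG, 14.1% TTGGCA, 35.7% GGGCGG and 13.6% TATAAA. The annotated transcript start in the Nrxn3 window lay 227 bp from the centre of its accessible region, and that in the Cdkn2a window 46 bp.

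Values are reads per region as scaled and rounded by the authors, and are given for mdx replicates 1 and 2 and then wild type replicates 1 and 2. Over the 273 regions they ran from 50 to 608 with a median of 105 in mdx replicate 1, from 50 to 485 with a median of 78.0 in mdx replicate 2, from 0 to 121 with a median of 16.0 in wild type replicate 1, and from 0 to 103 with a median of 20.0 in wild type replicate 2. The medians came from about 76.0, 67.1, 13.1 and 40.7 reads, so most single regions rest on few reads, most of all in wild type replicate 1. The ratio had a median of 3.45, with quartiles of 2.83 and 4.79 and a maximum of 51.0. It was 3 or more in 177 regions, 5 or more in 62 and 10 or more in 16. Together the 273 regions held 2.39% and 2.12% of the unlinked signal of mdx, and 0.481% and 0.582% of that of wild type.

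**Figure D1:**
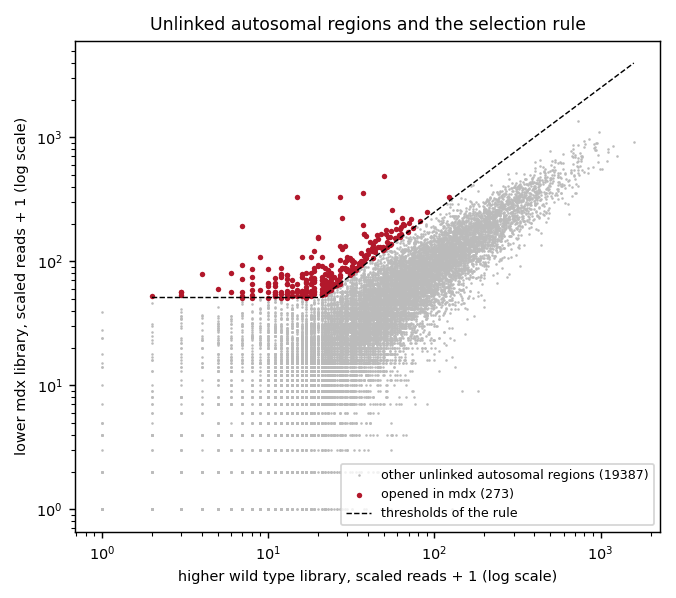
Lower mdx value against higher wild type value for the unlinked autosomal regions, both as value + 1 on log axes, with lines at the thresholds of 50 and 2.5 that define the set. The 273 members fill the corner past both lines, and their density is highest next to the thresholds: 96 have a ratio below 3.

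The region with the largest ratio, chr14:17205659-17206012, had 120 and 51 in mdx and 1 and 0 in wild type. Its nearest coding gene is Rarb, a retinoic acid receptor, 124 kb away. Wild type held 1 read in all. With the reads of both libraries of a group summed, the mdx to wild type ratio was 236, a measure other than the ratio of 51.0. Its 95% interval of 41.6 to 9383 covers counting error only. It does not allow for the choice of this region as the largest ratio, so it is no test. The second, chr4:88950589-88951057, lies between the interferon cluster and Cdkn2a and had 267 and 192 in mdx and 4 and 6 in wild type, a ratio of 32.0. In both regions every wild type value was far below every mdx value, and mdx replicate 1 was the higher of the mdx libraries. A region in Steap3, a metalloreductase of iron uptake, had 76 and 55 against 2 and 1. One 39.7 kb from Cdk6, a kinase of G1 progression, had 58 and 55 against 2 and 2. Both had a ratio of 27.5, and neither group's values came near the other's.

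Of the 15 largest ratios, 4 more lay inside coding genes, namely Pappa, described with its neighbours further on, E2f7, Cdc45 and Upp1. The E2f7 region, chr10:110762624-110763084, had 146 and 93 in mdx and 4 and 6 in wild type (ratio 15.5), and E2f7 is an atypical E2F that represses cell cycle genes. The Cdc45 region, chr16:18795397-18795806, had 109 and 80 against 0 and 5 (ratio 16.0), and Cdc45 is part of the replicative helicase. The Upp1 region, chr11:9131757-9132098, had 116 and 78 against 0 and 3 (ratio 26.0), and Upp1 encodes uridine phosphorylase. Cell cycle genes were not a list, so nothing is read from their number. Others of the 15 were far from any coding gene span: chr7:71368731-71369062 was 709 kb from Mctp2 (59 and 60 against 4 and 4), chr11:13523663-13524258 was 1059 kb from Cobl (202 and 107 against 1 and 8), and chr19:51353864-51354214 was 675 kb from Sorcs1 (123 and 71 against 6 and 5). Nearer to a gene, chr7:119244862-119245241, 60.5 kb from Gpr139, had 171 and 85 against 6 and 7.

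By level, the first member was chr12:89811954-89812558 at a start of Nrxn3, a presynaptic adhesion protein, with 608 and 485 in mdx and 18 and 49 in wild type (ratio 9.90). Next came chr4:64594938-64595623, before Pappa, with 469 and 357 against 34 and 36 (ratio 9.92). These were strong regions in mdx and weak ones in both wild type libraries. The region at the noncoding gene 4930554I06Rik had 330 and 418 against 121 and 103 (ratio 2.73), so it was open in wild type too. The Adgrl3 region, in the gene of the adhesion receptor latrophilin 3, had 321 and 224 against 16 and 27 (ratio 8.30). The Cd109 region had 401 and 220 against 66 and 71 (ratio 3.10), and Cd109 is a surface protein that binds TGF-beta. A region 82.3 kb from Mtpn had 341 and 249 against 71 and 90, and one 10.5 kb from the vomeronasal receptor gene Vmn1r43 had 223 and 232 against 48 and 63. Wild type signal among these 10 thus ran from 11 to 121, and a high level in mdx came with either a closed or an open region in wild type.

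**Figure D2:**
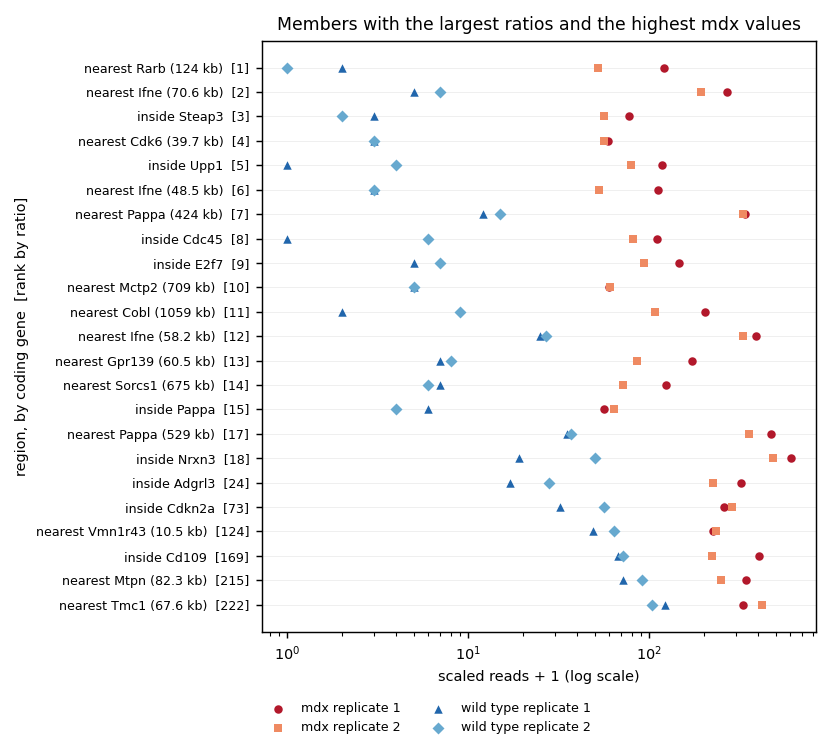
Values (+ 1, log axis) in each of the 4 libraries for the members with the 15 largest ratios or the 10 highest lower mdx values. Mdx and wild type points are in different colours. The Nrxn3 region has the highest mdx values, 608 and 485, and all mdx points of a member lie above its wild type points, as the rule requires.

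At the edge of the rule, the 3 members with the smallest ratio had 88 and 65 against 24 and 26 (chr6:141050208), 211 and 170 against 20 and 68 (chr8:103331065), and 133 and 141 against 33 and 53 (chr6:22280173). The 3 regions just outside, 1 of them in Alk and 1 in Slc2a1, had 82 and 82 against 26 and 33, 83 and 82 against 21 and 33, and 72 and 108 against 28 and 29. At the level of 50, members included chr12:118569859 (50 and 81 against 7 and 3), chr2:22724217 (106 and 50 against 4 and 9) and a region in Macrod2 (113 and 50 against 7 and 11). Regions at 49 that missed it included 1 in Kif26b (65 and 49 against 10 and 19), chr16:46957102 (83 and 49 against 9 and 10) and 1 on chromosome 18 (65 and 49 against 2 and 6). Values inside and outside were alike: 72 members lay below 60, 444 regions passed the ratio but not the level, 74 of them at 40 or more, and 221 passed the level with a ratio of 2 to below 2.5.

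The libraries of a group were not equal in these regions. Mdx replicate 1 was above replicate 2 in 216 of 273 regions, 79.1%, by a median of 0.31 on the log2 scale (1.24-fold), against 64.4% and 0.15 in the 6822 unlinked regions that met the mdx level of 50 alone. Wild type replicate 2 was above replicate 1 in 184 regions, 67.4%, by 0.30 (1.23-fold), against 55.2% and 0.07. The rule takes the lower mdx and the higher wild type value, so the lower mdx library and the higher wild type library decided most memberships. These were mdx replicate 2 and wild type replicate 2, the 2 libraries without which the count was largest.

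The wild type floor of the set was low but seldom empty. No member had 0 in both wild type libraries. The higher wild type value was 5 or less in 8 members, 10 or less in 37 (13.6%), 20 or less in 124 (45.4%) and 40 or less in 222 (81.3%). Per kb of region the median signal was 49.6 and 62.5 in wild type replicates 1 and 2, against 114 and 120 over all unlinked regions and 199 and 205 over those that met the mdx level alone. In mdx the members had 314 and 241 per kb against 275 and 243 in the latter. In wild type replicate 1, 79 members (28.9%) were at or below the 10th percentile of all unlinked regions per kb, and in replicate 2, 128 (46.9%). At or below the median were 254 (93.0%) and 250 (91.6%). Ranked by value and not per kb, fewer members stood this low. In replicates 1 and 2, 52 and 48 were at or below the 10th percentile, and 221 and 205 at or below the median. Members had a median width of 350 bp against 282 bp over all unlinked regions, and width lowers signal per kb at a given value. The rule limits wild type values relative to mdx values, so low wild type ranks follow in part from the selection. How regions came to be listed is not known in full, so these shares rank the members among listed regions, not against the genome.

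Width varied less than level. Members were 177 to 794 bp wide with a median of 350 bp and quartiles of 277 and 421 bp, against a median of 282 bp over all unlinked regions and 450 bp over those that met the mdx level alone. The latter set also had more mdx signal, with median values of 117 and 103, so its width is not a comparison at equal signal. The median width was 356 bp at a ratio below 3, 351 bp from 3 to 5, 308 bp from 5 to 10 and 366 bp at 10 or more, with no order. The widest were chr4:88937982-88938776 (794 bp), chr6:25449981-25450753 (772 bp; 218 and 152 against 28 and 58) and chr3:81215522-81216265 (743 bp, 1.85 kb from Pdgfc). The narrowest were chr5:21528534-21528711 in Fbxl13 (177 bp; 53 and 72 against 15 and 14), chr15:55749223-55749409 in Sntb1 (186 bp; 94 and 91 against 17 and 31) and chr14:15048288-15048477 near Nek10 (189 bp; 65 and 57 against 22 and 4). Sntb1 encodes beta-1-syntrophin, a protein of the dystrophin complex. The 3 widest had mdx values of 152 or more in both libraries, and the 3 narrowest 94 or less.

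**Figure D3:**
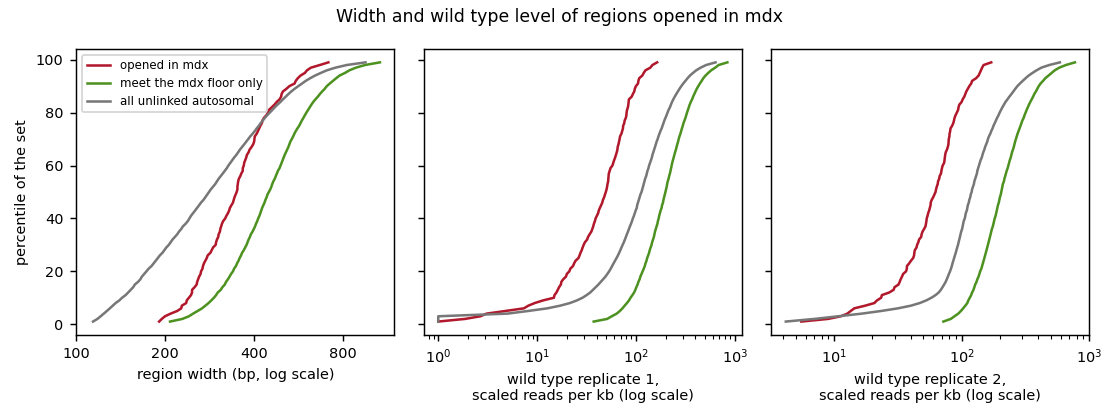
Region width in bp and wild type signal per kb for the 273 members, the regions that met the mdx level alone and all unlinked autosomal regions. Members have a median width of 350 bp, between the 282 bp of all unlinked regions and the 450 bp of the mdx level group, and the lowest wild type signal of the 3 sets.

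Inside the span of a coding gene lay 128 members, 46.9%, against 48.0% of all unlinked regions. Another 21 lay inside a noncoding gene only, and 124, 45.4%, outside any gene, against 42.4%. Members were far from annotated coding starts: the median distance was 108 kb, with quartiles of 38.9 and 357 kb, against 66.6 kb over all unlinked regions and 69.2 kb over those that met the mdx level alone. More than 100 kb from a start lay 135 of 265 members (50.9%), against 38.9%, and within 5 kb lay 2 (0.755%), against 2.95%. The start table lacks chromosome 18 and some genes, so distances are upper values and 8 members have none. By chromosome, members were 0.610% of the unlinked regions on chromosome 13 (6 of 983) and 2.55% on chromosome 19 (12 of 471), with 1.77% on chromosome 4 (24 of 1356) and 2.06% on chromosome 14 (18). On chromosome 19, 4 members lay before Sorcs1, a sorting receptor of the VPS10 family, among them the region at 675 kb above. Of the others, 50872206-50872550 had 152 and 107 against 17 and 14, and 50908780-50909109 had 134 and 65 against 7 and 7. The last, 51482188-51482744, had 205 and 131 against 28 and 28, and its nearest coding gene span was Ins1, 782 kb away.

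The nearest other member was 5.87 kb to 53.5 Mb away, with a median of 1.71 Mb and quartiles of 244 kb and 5.42 Mb. Within 10 kb of another member lay 6 (2.20%), within 50 kb 35 (12.8%), within 100 kb 43 (15.8%), within 200 kb 63 (23.1%) and within 1000 kb 116 (42.5%). The next unlinked region along the chromosome was also a member for 29 members (10.6%) and for 244 non-members (1.26%). This was so although the members sat in sparse stretches, with a median of 21.6 kb to the nearest region of any kind against 12.5 kb over all unlinked regions. With gaps of up to 100 kb, 43 members formed 19 chains: 16 pairs, 2 chains of 3 and 1 of 5. The share with a neighbour within 100 kb was 7 of 96 at a ratio below 3, 19 of 115 from 3 to 5, 11 of 46 from 5 to 10 and 6 of 16 at 10 or more. Members of 1 chain count each other as neighbours, so these are not separate cases. Regions of the chain of 5 are among the 6 of 16.

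The chain of 5 spans 170 kb of chromosome 4 between Klhl9, an adaptor of a ubiquitin ligase, and Mtap, an enzyme of methionine salvage. Its first region, 88928533-88928853, had 111 and 52 in mdx and 2 and 2 in wild type, and the second, 88937982-88938776, 387 and 328 against 24 and 26. Both lie inside the noncoding gene Gm49890. The third is the region with a ratio of 32.0 given above. The last 2 were less extreme: 89040811-89041259 had 227 and 164 against 23 and 37, and 89098341-89098623 had 84 and 53 against 10 and 12. Ratios in the chain were 26.0, 12.6, 32.0, 4.43 and 4.42, in order of position.

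A further 3 members lie within 500 kb of this chain. The region at a start of Cdkn2a, the gene of the cell cycle inhibitors p16Ink4a and p19Arf, was chr4:89282022-89282455 and had 257 and 285 in mdx and 31 and 55 in wild type, a ratio of 4.67. The others had 66 and 59 against 21 and 16 (89360407-89360635) and 82 and 73 against 11 and 5 (89478793-89479154). Mdx was above wild type in all libraries of each by the rule. Regions there that were linked to genes, which the rule did not use, differed less: a second Cdkn2a region, 89294517-89295240, had 290 and 372 against 134 and 232, and Cdkn2b had 460 and 503 against 308 and 398. Both groups were separate in each. Klhl9 had 347 and 429 against 562 and 475, Mtap 265 and 318 against 293 and 327, and Ifna13 307 and 264 against 283 and 310, with mdx lower for Klhl9 and groups that overlapped for Mtap and Ifna13. The median log2 difference (mdx minus wild type, mean of log2(value + 1)) was 2.95 over the 8 members, 0.77 over 16 other unlinked regions, 12 of them above 0, and 0.53 over 12 linked ones, 8 above 0.

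The second chain lies inside Ube2e2, a ubiquitin-conjugating enzyme and the only coding gene span with 3 members. Its regions, over 95.4 kb of chromosome 14, had 70 and 60 against 18 and 5 (18678322-18678692), 69 and 71 against 20 and 8 (18731261-18731628) and 146 and 100 against 35 and 21 (18773761-18774092), with ratios of 3.33, 3.45 and 2.86. The linked region of Ube2e2 had 164 and 152 in mdx and 191 and 185 in wild type, so both mdx libraries were below both wild type libraries there. The median log2 difference was 2.37 over the 3 members, 1.27 over 4 other unlinked regions and -0.16 over 5 linked ones.

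The third chain lies before Pappa, the gene of a secreted protease that frees insulin-like growth factor from its binding proteins, over 105 kb of chromosome 4. Beside 64594938-64595623 above, 64676768-64677209 had 245 and 188 against 62 and 45 (ratio 3.03) and 64699934-64700429 had 337 and 327 against 11 and 14 (ratio 23.4). The last is 424 kb from the span of Pappa. Inside Pappa were 2 more members, with 68 and 65 against 9 and 9 and with 55 and 63 against 5 and 3, ratios of 7.22 and 11.0. The gene-linked region of Pappa, 65127238-65127463, had 120 and 95 in mdx and 45 and 26 in wild type, and the groups did not overlap. All regions listed around this chain had a positive log2 difference, with medians of 3.51 over 5 members, 3.04 over 4 other unlinked regions and 1.61 for the 1 linked region.

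**Figure D4:**
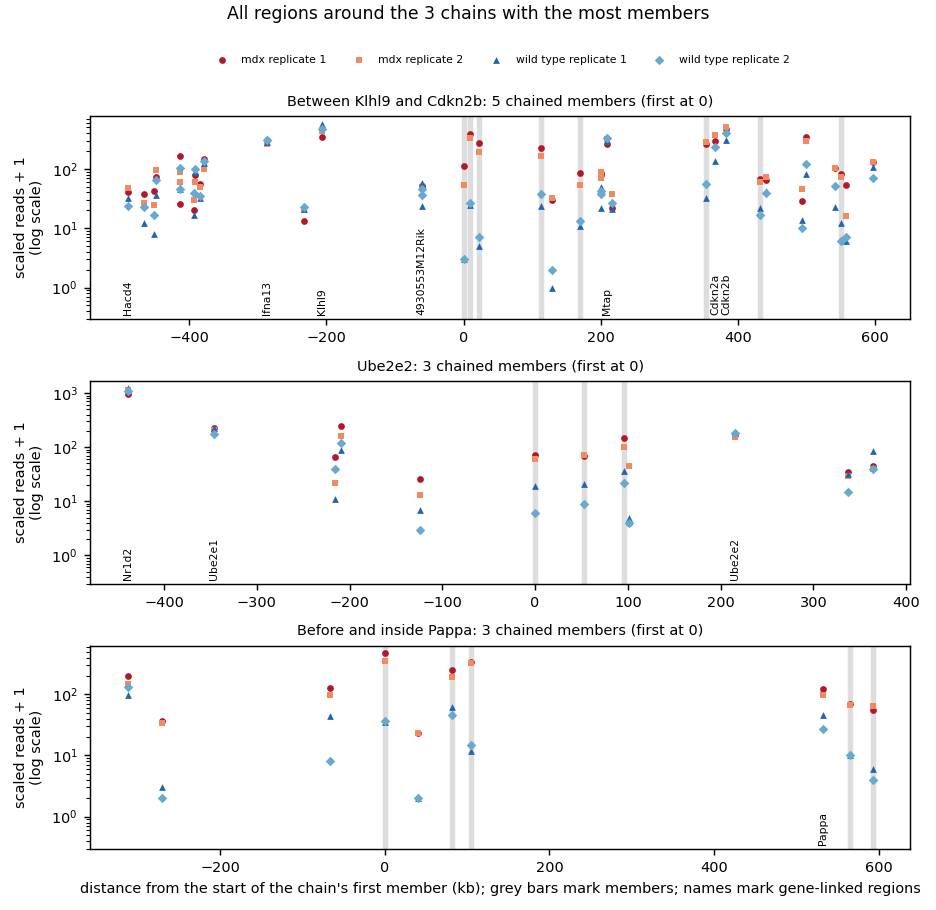
Values (+ 1, log axis) in each of the 4 libraries for every region around the 3 chains with most members, against distance from the first member of the chain in kb. Grey bars mark members. Log2 differences (mdx minus wild type) are not drawn. They run from 1.71 to 5.26 in members, and some non-members stand among these, up to 4.45. Their medians around the 3 chains are 0.77, 1.27 and 3.04 for other unlinked regions and 0.53, -0.16 and 1.61 for linked regions.

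Across the genome, 114 coding gene spans held a member: 101 held 1, 12 held 2 and Ube2e2 held 3. Those with 2 were Adgrl3, Etv6, Fam107b, Inpp4b, Macrod2, Myof, Nav3, Nrxn3, Pappa, Rnf150, Spag16 and Ust. In Inpp4b, a phosphoinositide phosphatase, the members were 5.87 kb apart, with 140 and 101 against 26 and 22 and with 119 and 98 against 28 and 18. In Myof, the gene of the membrane fusion protein myoferlin, they were 10.7 kb apart, with 205 and 195 against 24 and 36 and with 101 and 93 against 12 and 19. In both genes the members of a pair had like ratios, 3.88 and 3.50 in Inpp4b and 5.42 and 4.89 in Myof. The Etv6 pair, in the gene of an ETS repressor, had 113 and 59 against 1 and 20 and 91 and 91 against 22 and 34. In Ust, a sulfotransferase of dermatan sulfate, the pair had 87 and 55 against 6 and 3 and 76 and 79 against 2 and 11. The second Nrxn3 member had 87 and 78 against 10 and 15, below the first in every library. Among genes with 1 member, the region in Slc8a3, a sodium-calcium exchanger of muscle and nerve, had 88 and 73 against 7 and 7 (ratio 10.4), and the one in the lysophosphatidic acid receptor gene Lpar3 had 106 and 52 against 4 and 7 (ratio 7.43).

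Genes of 19 lists were looked up among the gene spans and nearest starts of unlinked regions. No member fell to satellite cell genes, 0 of 66 unlinked regions, nor to those of endothelium (0 of 25), macrophages (0 of 13), myofibres (0 of 28), Schwann cells or tendon. Genes of fibro-adipogenic progenitors held 0 of 37 by this count but 2 of 45 by the nearest gene span, since the start table lacks Osr1, a transcription factor of these cells. The regions nearest the span of Osr1 had 127 and 125 against 43 and 39 (3.43 kb away) and 106 and 88 against 5 and 11 (291 kb away). No member fell by either count to TGF-beta and BMP genes (0 of 164), Wnt (0 of 74), Notch (0 of 61) or AP-1 genes (0 of 96). Against the background of 1.39%, most of these lists are too small for a count of 0 to stand apart. Smooth muscle genes held 1 of 10, in Myh11, the smooth muscle myosin, with 188 and 165 against 62 and 52. Necroptosis genes held 1 of 23, a region 95.8 kb from the start of the deubiquitinase Cyld with 145 and 98 against 28 and 32. Genes of the NuRD complex, a chromatin remodeller and deacetylase, held 1 of 36 and, by nearest span, 0 of 13. This was a region 640 kb from Hdac2 with 53 and 55 against 20 and 19.

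By nearest start, the list with the most members was axon guidance, with 7 of 194 regions, 3.61%. Shares were higher in the smaller lists of growth factor (3.96%), necroptosis (4.35%) and smooth muscle genes (10.0%). By nearest span, axon guidance genes had 6 of 160, level in number with the 6 of 102 of extracellular proteases. Of the 7 by nearest start, 3 were near Efnb2, the ligand ephrin-B2. They had 148 and 128 against 39 and 41, 106 and 105 against 26 and 30, and 58 and 71 against 15 and 21. Another of the 7 lay inside Dcc, a netrin receptor, with 68 and 56 against 12 and 16. Those nearest the starts of Sema5a (1662 kb away), Ntn4 and Sema6d had 138 and 55 against 10 and 10, 80 and 70 against 18 and 21, and 105 and 98 against 27 and 36. Growth factor genes held 4 of 101, or 3 of 99 by nearest span, and 3 of them were at Pdgfc, a platelet-derived growth factor: 53 and 55 against 0 and 10 inside the gene, and 66 and 64 against 2 and 12 and 242 and 202 against 21 and 69 outside it. The fourth was 281 kb from Spry2, an inhibitor of receptor tyrosine kinase signalling, with 283 and 177 against 22 and 50. Members near 1 gene share a neighbourhood and are not separate cases. Extracellular proteases held 3 of 102, namely the pair in Pappa and 1 in Adamts2, a procollagen peptidase, with 57 and 63 against 10 and 22. By nearest span the proteases held 6 of 102, 5 of them at Pappa. Extracellular matrix genes held 3 of 133 by nearest listed start, all of them the chain before Pappa assigned to Tnc, and by nearest span 1 of 154, a region 150 kb from Postn with 134 and 123 against 42 and 48. Cytoskeletal genes held 2 of 68, in or near Dst (108 and 100 against 18 and 31) and Anxa5 (182 and 196 against 51 and 58).

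Regions near members, which the rule left out, also leaned towards mdx on the deposited scaling. Over unlinked non-members the median log2 difference was 0.67 within 10 kb of a member (60 regions, 85.0% above 0), 0.53 from 10 to 50 kb (243), 0.34 from 50 to 200 kb (716), 0.29 from 200 to 1000 kb (2599) and 0.15 beyond (15769, 58.8% above 0). Over gene-linked regions it was 0.56 within 10 kb (16 regions), 0.07 from 10 to 50 kb (103), -0.09 from 50 to 200 kb (395), -0.17 from 200 to 1000 kb (1593) and -0.22 beyond (12237). In both kinds of region the medians were lower at each greater distance. The same 4 libraries enter the members and their neighbours, so the trend is a description. Region size and signal were not held equal between the distance classes. The sign of these medians also depends on the scaling. Over all unlinked autosomal regions the median was 0.20 as deposited. It was -0.16 with unlinked medians set equal and 0.32 with gene-linked medians set equal.

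**Figure D5:**
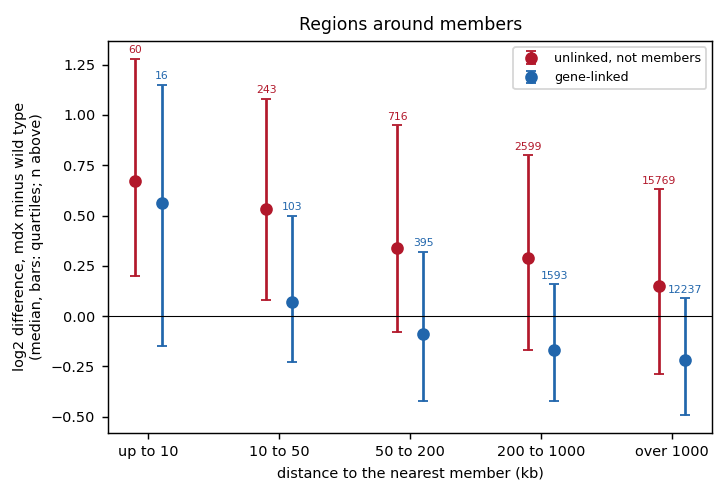
Median log2 difference (mdx minus wild type) with quartiles for non-members, by distance in kb to the nearest member, unlinked and gene-linked regions apart. The medians go from 0.67 to 0.15 for unlinked and from 0.56 to -0.22 for linked regions, and the nearest linked class holds 16 regions.

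The linked regions of genes that hold a member were compared with linked regions as a whole. There were 94 such regions of 81 genes, with a median log2 difference of 0.06, and 54.3% were above 0, against -0.24 and 26.2% over 11388 named linked regions. With genes whose start is nearest to a member included, there were 193 regions of 163 genes, with a median of 0.00 and quartiles of -0.34 and 0.40. Of these, 49.7% were above 0. Named after their values were seen, the highest were Nr1h4, a bile acid receptor, with 43 and 41 against 7 and 1, Prune2 with 62 and 31 against 5 and 4, and Dpysl3, a cytoskeletal protein of growing axons, with 169 and 127 against 15 and 30. The Prune2 member itself had 195 and 156 against 11 and 19. Mdx values were above wild type in both libraries of each of these. The lowest were Fam189a1 with 4 and 0 against 23 and 11, B3gat1 with 7 and 0 against 6 and 11, whose groups overlapped, Arpp21 with 29 and 38 against 86 and 109, and Dab1, an adaptor of reelin signalling, with 19 and 23 against 45 and 62. Except in B3gat1, both mdx libraries were below both wild type libraries in these.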

How the data were processed

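ATAC-seq values of 4 libraries, 2 of mdx and 2 of wild type quiescent satellite cells, were used. The submitters' processing notes name build mm10, DESeq, DESeq2, MACS2 2.1.0, Trimmomatic 0.33, Picard 2.9.0 and STAR 2.5.3a. How each was used, whether duplicate reads were kept or Tn5 cuts shifted, and whether peaks were called on pooled reads: not given in the sources used here. For each region and library the authors deposited 1 whole number, treated here as a score, because the values are reads multiplied by a factor per library and rounded. This was read from the values: of the whole numbers to 200, 55, 28, 36 and 0 never occur in mdx replicates 1 and 2 and wild type replicates 1 and 2, and the factors are 1.382, 1.162, 1.222 and about 0.492. The interval given for the summed ratio of a single region covers counting error only and not the selection of that region. Coordinates are as in the file, which does not state whether starts count from 0 or 1.

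The members and the gene lists were chosen with earlier results of these data known, and nothing was tested. Log2 differences are means of log2(value + 1), mdx minus wild type. Named members are the 15 largest ratios, the 10 highest lower mdx values, the members of the 3 chains with most members, the 3 widest and 3 narrowest, up to 4 per gene list, gene spans with 3 or more members, and 3 regions on each side of each threshold. Others, such as pairs in 1 gene, were named after their values were seen. Genes and 32851 promoter windows came from RefSeq (GRCm38.p6); windows cover 17492 coding genes. Sequences of other members were not used here. Gene lists were also counted by nearest gene span, chosen after seeing the data. Alternatives were other thresholds, scalings, group means, and leaving out each library. Scripts, checked on simulated data, ran in Python 3.11.15 with pandas 2.3.3.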

Additional observations from a re-analysis of the deposited data

Results flagged for a closer look

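Outside the autosomal set, 1 of 507 unlinked regions of chromosomes X and Y passed the same thresholds, which is a signal in data that the set leaves out. It was chrX:49073656-49073964, inside Enox2, a cell surface oxidase, with 95 and 72 in mdx and 16 and 28 in wild type, a ratio of 2.57.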

How the results depend on the processing

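Of 106 values recomputed under 15 alternative settings, 71 stayed within their interval (within 1.5 times for the number of members) and 35 moved more. These intervals are spreads over regions, taken as separate although some members lie in chains, and do not measure the spread between libraries. The median log2 difference of linked regions of genes at members, 0.00, ran from -0.14 to 0.10 as the members changed. It was -0.01 with unlinked medians set equal. This range thus leaves out the shift that a change of scaling gives to every log2 difference. The number of members was 494 at a fold of 2, 177 at 3, 448 at a level of 30, 87 at 100, 134 with unlinked medians set equal, 829 with group means in place of the lower and higher library, and 335 to 1024 with 1 library left out. The median width was 292 bp at a level of 30, 462 bp at 100, and 298 to 367 bp with 1 library left out. The share with another member nearby was 6.90% at a level of 100, 11.2% with unlinked medians set equal, 25.2% with group means, 23.1% within 200 kb in place of 100 kb, and 15.2% to 25.4% with 1 library left out. Fewer libraries in the rule, or looser thresholds, admit more regions by construction; the cause of the other shifts was not tested. The 134 regions were all among the 273. The share inside coding genes moved by less than its interval under every setting. Equal unlinked medians moved the median log2 difference of all autosomal regions from -0.02 to -0.38. Sequence windows of other sizes and nearest starts in place of spans were not run. No paired analysis was possible because the set comes from no test. Medians of about 13.1 and 40.7 wild type reads limit the ratio of any single region.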
